A study of Mus musculus with 8 samples.

Results

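Microfold cells are epithelial cells of mucosal surfaces that take up particles and pass them to immune cells, and some medullary thymic epithelial cells (mTEC) carry genes of this programme. In the gut, the ligand RANKL acts through its receptor RANK to induce them, the Ets-family factor Spib is needed for their maturation, Gp2 is an uptake receptor on their surface, and the chemokines Ccl20 and Ccl9 attract immune cells. Described here are 123 of 9953 thymic stromal cells, 47 in well 1 and 76 in well 2 of the 16-week mice. They were chosen by their own RNA counts in 5 steps. Epcam, Krt8, Krt18 and Krt5 together had at least 3 unique molecular identifiers (UMIs, counted mRNA molecules) and more than Col1a1, Col1a2, Col3a1 and Dcn, which defined a thymic epithelial cell (TEC). Aire, the factor that drives tissue-restricted genes in mTEC, had fewer than 2 UMIs. The cortical genes Psmb11 and Prss16 made up under 0.1% of UMIs. Fewer than 3 of the 7 tuft cell genes Trpm5, Pou2f3, Avil, Sh2d6, Gnb3, Alox5ap and Il25 were detected, and at least 2 of the 4 genes Spib, Gp2, Ccl20 and Ccl9 were. The cells are called members, and those 4 genes the rule genes.

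The study profiled C57BL/6 thymic stroma of 1-week-old and 16-week-old mice by CITE-seq, which counts mRNA and DNA tags of 27 surface reagents in the same cells. CD45-positive cells were depleted, EpCAM1-positive cells were enriched by sorting, and none of the mice was described as carrying a transgene or treatment. Several thymi of an age were pooled and 1 pool was loaded on 2 wells. A group is therefore 1 sample, both wells are given side by side, and no test between groups was run. The 16-week wells held 1939 and 4738 cells and the 1-week wells 1846 and 1430, with a median of 6668.5 to 8690.5 UMIs per cell. Of the barcodes, 15 occurred in more than 1 library and 0 of them belonged to a member, and 3 members were among the predicted doublets. Intervals are exact, at 95%, and cover counting error only.

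The rule genes lie apart in the genome except for Spib and Gp2, which share a chromosome (GENCODE M21, GRCm38). Spib lies at chr7:44525993-44532071 on the minus strand, Gp2 at chr7:119442537-119459285 on the minus strand, Ccl20 at chr1:83116766-83119167 on the plus strand and Ccl9 at chr11:83572919-83578636 on the minus strand.

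The surface results below turn on 6 reagents, whose 15-base tags were read in place of the proteins and are shown because each value of a surface level is a count of 1 of these oligonucleotides. They are printed in lower case throughout, since no base was singled out. CD80 is the costimulatory ligand of mature mTEC, MHCII presents peptides to helper T cells, Sca1, podoplanin and CD49a are surface proteins of some TEC and of stroma, and UEA1 is the lectin that marks mTEC, detected through a tagged streptavidin.
CD80: gacccggtgtcattt
MHCII: ggtcaccagtatgat
Sca1: ttcctttcctacgca
Podoplanin: gggcgatttagtgtg
CD49a: ccattcatttgtggc
UEA1: aacctttgccactgc

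The members held few rule gene molecules, and a minority held many. Of the 123 cells, 68 had 2 UMIs of the rule genes, 25 had 3 and 7 had 4. The other 23 had 5 or more, of which 13 had 10 or more, and the richest cell had 143. Spib was detected in 88 members, Ccl20 in 88, Ccl9 in 52 and Gp2 in 44. The most frequent combination was Spib with Ccl20 and no other rule gene, in 41 cells, and 4 cells held all 4 genes. Just outside the limit, 648 other Aire-low TEC had 1 rule gene, with a median of 1 UMI. Of those, 13 had 5 or more UMIs of a single rule gene, with a highest value of 30, so cells strong in 1 rule gene alone were left out by the rule.

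Background detection was measured in fibroblast-type cells of the same wells, which should lack the programme. At full depth, 103 of 2264 fibroblast-type cells held at least 2 rule genes, which is 4.55% (3.73 to 5.49), against 5.12% (4.28 to 6.08) of the 2400 Aire-low TEC. The intervals overlapped, with a median of 10079 UMIs per fibroblast-type cell, 7211 per member and 4832 per other Aire-low TEC. With every cell thinned to 2000 UMIs, the share was 0.486% (0.243 to 0.868) of fibroblast-type cells and 1.38% (0.948 to 1.93) of Aire-low TEC. The intervals separated there, but thinning took a larger part of the UMIs from the deeper fibroblast-type cells. The part of that in the separation was not tested. Among members, 33 of 123 still held 2 rule genes after thinning. Spib alone was detected in 18.0% of fibroblast-type cells and 15.2% of Aire-low TEC, and Ccl20 in 10.8% and 12.8%.

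For most members the label microfold-like mTEC therefore rested on few molecules. The 23 cells with at least 5 rule gene UMIs are called rich members and the 100 others sparse members, a limit set after the values were seen. Of the rich members 8 came from well 1 and 15 from well 2. Cells with 2 rule genes and 5 UMIs made up 0.958% (0.608 to 1.43) of Aire-low TEC and 0.353% (0.153 to 0.695) of fibroblast-type cells, with overlapping intervals. Rich members had a median of 9166 UMIs and sparse members of 6247.

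**Figure D1:**
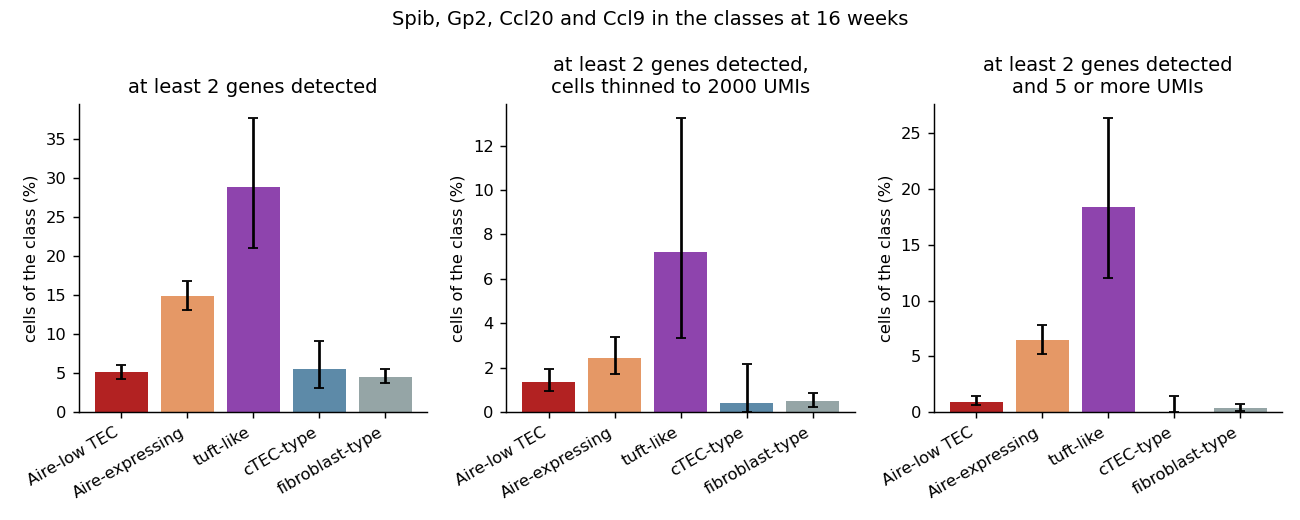
Share of cells of each class at 16 weeks (%) with at least 2 of Spib, Gp2, Ccl20 and Ccl9, at full depth, after thinning to 2000 UMIs, and with 5 or more UMIs of them. Bars are both wells pooled and whiskers exact 95% intervals, and the Aire-low TEC stand at 5.12% beside 4.55% of fibroblast-type cells at full depth and at 1.38% beside 0.486% after thinning.

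The rule used the rule genes themselves, so their levels are a description. Ccl20 stood at 417 and 291 CPM (UMIs of the gene per 1000000 UMIs summed over a class in a well) in members of wells 1 and 2, and at 20.1 and 20.4 in other Aire-low TEC. Spib stood at 110 and 164 against 20.1 and 21.7, Gp2 at 56.1 and 109 against 4.65 and 8.48, and Ccl9 at 47.5 and 133 against 5.19 and 5.41. Within the members most of this RNA sat in the rich cells. Rich members held 359 of the 438 Ccl20 UMIs, 82 of 118 Gp2 UMIs, 91 of 134 Ccl9 UMIs and 108 of 189 Spib UMIs.

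The rich members were not alike. Ccl20 was detected in 19 of 23, Spib in 18, Ccl9 in 18 and Gp2 in 9. The richest cell, in well 2, had 94 Ccl20, 17 Spib, 17 Ccl9 and 15 Gp2 UMIs. The next, in well 1, had 95 Ccl20 and 10 Spib UMIs with 1 of Gp2 and 0 of Ccl9. The cell with the most Gp2 had 35 UMIs of it and 30 of Ccl20, whereas the cell with the most Spib had 21 UMIs of it and 0 of Ccl20 and Gp2. Sox8, a transcription factor of microfold cell maturation, was detected in 7 rich members, all 7 in well 2, and in 1 of 100 sparse members. Aire was at 0 in 11 rich members and at 1 UMI in the other 12.

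**Figure D2:**
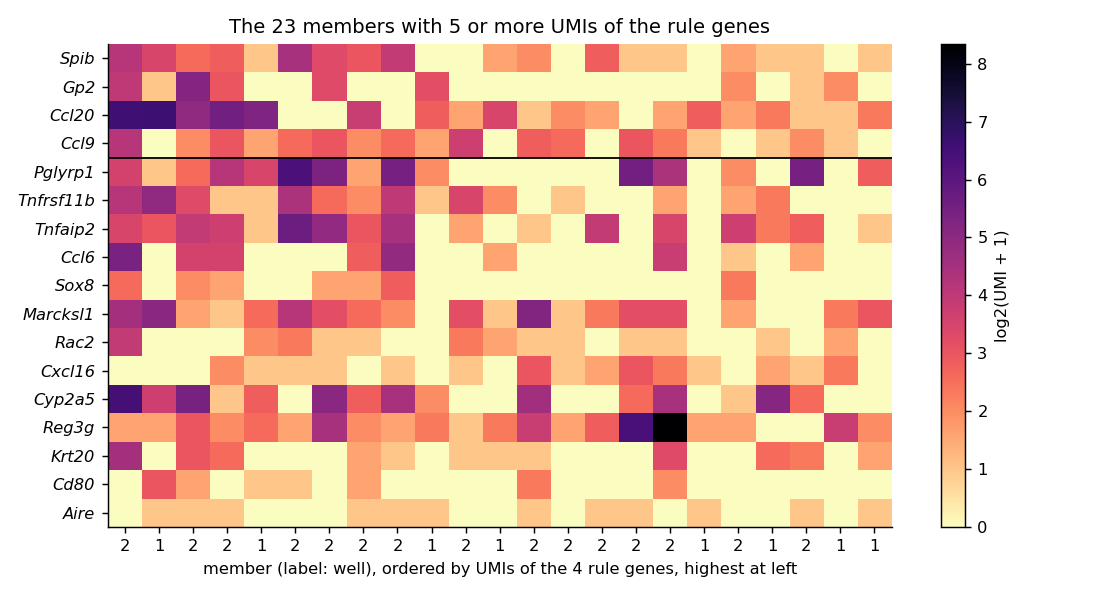
UMIs of microfold and related genes in each of the 23 rich members, as log2(UMI + 1), with cells in columns labelled by well and genes in rows (rule genes above the line). The cells to the left hold up to 143 rule gene UMIs, and Sox8 and Ccl6 are seen in a subset of them.

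Genes that the rule did not read were then compared between all members and other Aire-low TEC. A gene was called where its CPM differed at least 2-fold in the same direction in both wells, among genes with a mean of at least 25 CPM over both classes. This called 124 of 6180 genes higher (2.01%) and 38 lower (0.615%), the rule genes included. Of the microfold list without the rule genes, 12 of 16 genes were tested, 6 were higher and 0 lower. Their median log2 ratio was 1.01 in well 1 and 1.10 in well 2, against -0.05 and -0.01 over all genes tested. The same cells were chosen by RNA counts in this contrast, so these values are a description.

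The 6 called genes include 2 receptors that bind RANKL. Tnfrsf11a, which encodes RANK, stood at 220 and 152 CPM in members and at 55.5 and 66.8 in other Aire-low TEC. Tnfrsf11b, the decoy receptor osteoprotegerin that binds RANKL, stood at 114 and 113 against 14.9 and 18.0. Both wells thus lay above the comparison class for both genes, but Tnfrsf11b passed the limit of 25 CPM only through the members. Tnfaip2, a microfold cell marker linked to membrane protrusions, stood at 119 and 275 against 49.2 and 55.0. Pglyrp1, a secreted protein that binds bacterial peptidoglycan, stood at 106 and 395 against 36.7 and 32.7. Its level differed more between the wells than the others did. Rac2, a small GTPase, and Scg5, a secretory chaperone, stood at 66.9 and 73.8 and at 66.9 and 54.7, above 23.5 and 30.0 and above 30.6 and 27.2. Tnfaip2 was also abundant in fibroblast-type cells, at 179 and 173 CPM.

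Other microfold genes were not called. Marcksl1 stood at 389 and 400 CPM against 209 and 238, Clu, a secreted chaperone, at 674 and 1035 against 447 and 517, and Cxcl16 at 99.3 and 111 against 69.1 and 67.6. Anxa5, an annexin, stood at 484 and 707 against 573 and 583, lower in well 1 and higher in well 2, and Prnp, the prion protein gene, at 173 and 236 against 169 and 163. Ccl6, a chemokine close to Ccl9, stood at 6.48 and 138 against 5.55 and 5.14, a difference seen in well 2 alone.

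The genes differed in how their UMIs fell between rich and sparse members. Tnfrsf11b stood at 541 and 369 CPM in rich members, at 35.8 and 16.4 in sparse members and at 14.9 and 18.0 in other Aire-low TEC. It was detected in 16 of 23 rich and 15 of 100 sparse members. In well 1, 1 rich member held 30 UMIs of Tnfrsf11b and the next held 4. Pglyrp1 stood at 277 and 1336 in rich and 74.2 and 39.3 in sparse members, and was detected in 15 and 21 cells. Tnfaip2 stood at 180 and 811 against 107 and 72.1. Of the 119 Ccl6 UMIs of all members, 115 were in rich members. Tnfrsf11a stood at 749 and 187 CPM in rich and 123 and 139 in sparse members. Rac2 stood at 111 and 121 CPM in rich and 58.8 and 55.7 in sparse members. Scg5 stood at 83.2 and 69.4 CPM in rich and 63.9 and 49.2 in sparse members, and Cxcl16 at 111 and 126 against 97.2 and 105. Clu differed in direction between the wells, with 416 and 1626 in rich and 721 and 811 in sparse members. Among 1474 genes with a mean of at least 100 CPM, 87 were higher in rich than sparse members (5.9%) and 46 lower (3.12%), a contrast that the rule genes themselves split. Of 10 microfold genes tested 4 were higher, namely Tnfrsf11b, Ccl6, Prnp and Pglyrp1, and 0 lower. Tnfrsf11b, Ccl6 and Pglyrp1 passed the limit of 100 CPM only through the rich members, so the count is no support for the list. Other lists also stood higher in rich members, and some stood lower. The chemokines summed to 3273 and 5217 CPM in rich and 11649 and 7777 in sparse members. The intertypical genes, which mark less mature TEC, summed to 2163 and 10460 against 21431.5 and 12910. The summed level of the gut and liver genes was 3453 and 3261 CPM in rich and 621 and 500.0 in sparse members, with Saa1 and Saa3, which passed the limit only through the rich members, called higher of 3 tested, and that of the microfold genes was 3716 and 6943 against 2330 and 2549. Single cells weighed on the gut and liver sum, as 1 rich member of well 2 held 324 Reg3g UMIs, 64.4% of those in rich members. The haematopoietic genes summed to 1109 and 759 CPM against 596 and 293, with Lyz2 called higher. Of the 21, 10 were at 0 in rich members, from 302703 UMIs, and 7 in sparse members, from 1000985 UMIs. The part of blood cell RNA was not tested.

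Sparse members were set beside other Aire-low TEC in the same way. Of 6144 genes 36 were higher (0.586%) and 38 lower (0.618%), rule genes included. Of 10 microfold genes tested, Tnfrsf11a alone was called, higher, and the median log2 ratio of the list was 0.85 and 0.59, against -0.01 and 0.03 over all genes tested.

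**Figure D3:**
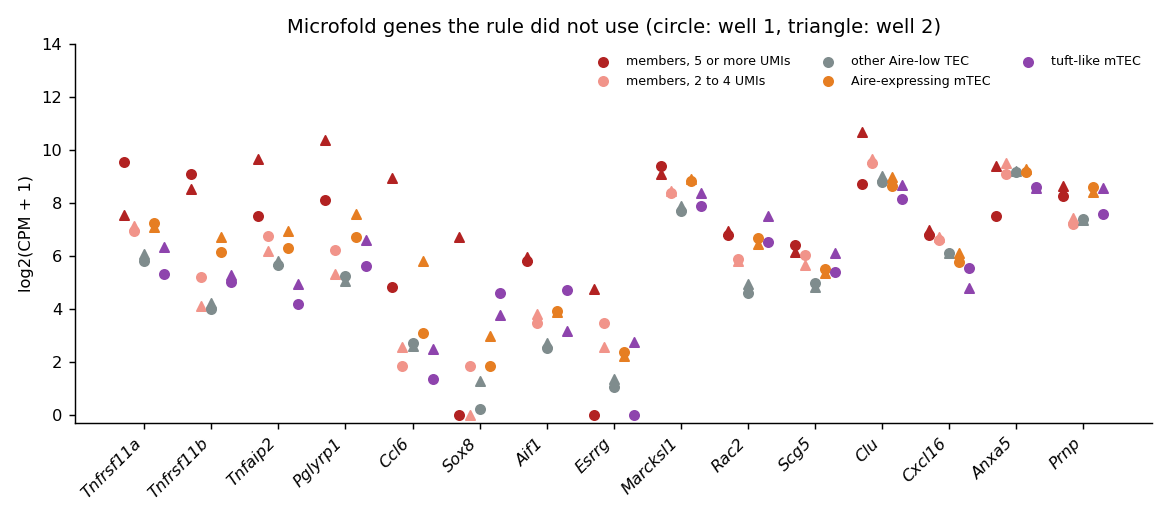
Levels of 15 microfold genes outside the rule, as log2(CPM + 1), in rich members, sparse members, other Aire-low TEC, Aire-expressing mTEC and tuft-like mTEC, with circles for well 1 and triangles for well 2. Tnfrsf11b in rich members (541 and 369 CPM) stands above sparse members and other Aire-low TEC in both wells, while Sox8 in rich members is at 0 in well 1 and at 104 CPM in well 2. In well 1, 1 rich member held 30 UMIs of Tnfrsf11b.

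A rule on size named the 10 genes most raised over other Aire-low TEC, among them Lyz1, Cyp2a5, Tnfrsf11b, C2cd4b, Gpa33, Ncf1, Aqp3 and Spink1. Lyz1, a lysozyme of intestinal Paneth cells, stood at 518 and 214 CPM against 30.6 and 28.3, but 1 cell held 39.8% of its UMIs in members. Cyp2a5, a cytochrome P450, stood at 194 and 390 against 28.8 and 40.2 and was detected in 15 of 23 rich and 27 of 100 sparse members. Ncf1, a subunit of the phagocyte NADPH oxidase, stood at 92.8 and 82.1 against 15.6 and 16.2, in 15 rich and 15 sparse members. Ncf1, C2cd4b, Gpa33, Aqp3 and Tnfrsf11b were under 25 CPM in other Aire-low TEC and passed the limit only through the members. Spink1, a trypsin inhibitor, stood at 77.7 and 318 against 16.1 and 30.8, with 66.7% of its UMIs in 1 cell. Reg3g and Saa3 came from the gut and liver list. Reg3g, an antibacterial lectin, stood at 514 and 805 against 108 and 92.8. Saa3, an acute phase protein, stood at 421 and 121 against 58.5 and 48.4. Reg3g and Saa3 were the 2 higher genes of the 3 gut and liver genes tested. In these genes single cells carried much of the RNA, 35.4% of Reg3g and 50.5% of Saa3 UMIs being in 1 member each.

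The list of mature mTEC markers had 9 tested genes, of which Tnfrsf11a, Csn2 and Krt20 were higher and 0 lower. Krt20, a keratin of differentiated gut epithelium, stood at 19.4 and 64.2 CPM against 4.12 and 5.41, and 60 of its 63 UMIs were in rich members. It passed the limit of 25 CPM only through the members, so its call is no support for the list. Csn2, a milk protein, stood at 212 and 314 against 89.5 and 104, and was detected in 22 of 23 rich and 54 of 100 sparse members. Of 13 tested genes of antigen presentation by MHC class II, Ctss, a protease that trims the invariant chain, was the single one called, at 77.7 and 131 against 29.7 and 36.9. Of 14 genes of the NF-kB and TNF receptor list, 2 were higher, both named above. Among 12 intertypical genes, which mark less mature TEC, 0 were called. Haematopoietic genes were also examined. Ptprc, the gene of CD45, stood at 6.48 and 2.38 CPM in members and 8.06 and 7.94 in other Aire-low TEC, and Itgax and Cd53 were among 6 of the 21 genes at 0 UMIs in members. In other Aire-low TEC 0 of the 21 were at 0, but that class summed to 16671651 UMIs and the members to 1303688. Of 4 genes tested, Lyz2 was higher and Trbc2, which passed the limit only through other Aire-low TEC, lower. The summed level of that list was 676 and 421 CPM in members and 226 and 284 in other Aire-low TEC, with Laptm5 at 164 and 109 against 44.8 and 61.6. The part of blood cell RNA in the results was not tested.

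Of the 38 lower genes, 5 were on the endothelial list. Such RNA was also found in a larger share of the comparison class. All 5 tested endothelial genes were lower, but each passed the limit of 25 CPM only through the comparison class, so the count was fixed by the filter. Examples are Pecam1 at 30.2 and 20.2 CPM in members and 115 and 107 in other Aire-low TEC, and Cldn5 at 4.32 and 2.38 against 65.0 and 65.7. At least 3 UMIs of the 6 endothelial genes were present in 7.69% of other Aire-low TEC and 3.25% of members. Without such cells in either class, 8 genes were lower and 111 higher. Pth, a parathyroid hormone gene, stood at 92.8 and 39.3 against 1957 and 793. Cxcl12, a chemokine abundant in cortical TEC, stood at 82.1 and 156 against 349 and 325.

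Against Aire-expressing mTEC, with at least 2 Aire UMIs, the members differed in the opposite sense. The comparison called 26 of 6175 genes higher in members (0.421%) and 125 lower (2.02%). Aire was lower by the rule, at 36.7 and 48.8 CPM against 725 and 658. Of 10 mature mTEC genes 5 were lower, Aire among them. Fezf2, a factor that drives other tissue-restricted genes, stood at 123 and 137 against 390 and 323, and Cd80 at 28.1 and 28.6 against 60.4 and 59.3. Of 15 MHC class II genes, H2-Ob, Cd80, Cd40 and Icosl were lower. Of 6 cell cycle genes 5 were lower, Top2a at 49.7 and 36.9 against 146 and 118, of which Cdk1, Ube2c and Cenpf passed the limit of 25 CPM only through the Aire-expressing mTEC. Of the microfold genes without the rule genes, 0 were called in either direction: Tnfrsf11b stood at 114 and 113 in members and 69.7 and 105 in Aire-expressing mTEC, and Pglyrp1 at 106 and 395 against 103 and 191. Anxa8, another annexin, which passed the limit of 25 CPM only through the members, led the higher genes, at 73.4 and 84.5 against 16.7 and 22.1, and Pdpn, the podoplanin gene, was the 1 intertypical gene called, at 75.6 and 79.7 against 33.7 and 34.0. Ccl19, Cxcl9 and the enteroendocrine peptide gene Pyy were lower, the last at 17.3 and 20.2 against 139 and 131 and above the limit of 25 CPM only through the Aire-expressing mTEC.

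Cells rich in the rule genes also occurred above the Aire limit. Of 1429 Aire-expressing mTEC, 92 (6.44%, 5.22 to 7.84) held at least 2 rule genes and 5 UMIs of them, against 23 of 2400 Aire-low TEC. Their median depth was 25260 UMIs and their median Aire count 12.5. At 2000 UMIs per cell, 10 of 1429 (0.700%, 0.336 to 1.28) and 9 of 2400 (0.375%, 0.172 to 0.711) still did so, with overlapping intervals. At that depth, 2 rule genes were found in 1.76% (1.13 to 2.60) of TEC at 0 Aire, 0.870% (0.398 to 1.64) at 1, 2.60% (1.73 to 3.74) at 2 to 9 and 1.99% (0.803 to 4.05) at 10 or more, where the interval at 1 lay below that at 2 to 9 and the other intervals overlapped. Aire itself was present at 2 or more UMIs in 20.8% of fibroblast-type cells, and the part of RNA from other cells in counts near the limit was not tested.

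Rich members were then set beside these 92 Aire-expressing cells. Among 1484 genes with a mean of at least 100 CPM, 45 were higher in rich members (3.03%) and 113 lower (7.61%). Of 10 microfold genes tested, Tnfaip2 was higher, at 180 and 811 against 85.2 and 365, and 0 were lower. The median log2 ratio of the list was 0.13 and -0.14, against -0.55 and -0.15 over all genes tested. Tnfrsf11b stood at 541 and 369 against 131 and 371, and Pglyrp1 at 277 and 1336 against 248 and 1060. Of 12 MHC class II genes tested, H2-DMb2, Ciita and Cd40 were lower. H2-DMb2, a subunit of the peptide loading chaperone, stood at 153 and 165 against 635 and 355 and was above 100 CPM in both classes. Aire, Fezf2, Cd40 and Utf1 were the lower mature mTEC genes. These 4 and Ciita passed the limit of 100 CPM only through the Aire-expressing cells, and Aire was set by the rule, so their calls are no support for the lists.

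Against tuft-like mTEC, which share Spib, 280 of 6337 genes were higher in members (4.42%) and 455 lower (7.18%). Spib, a rule gene, stood at 110 and 164 CPM in members and 212 and 256 in tuft-like mTEC, which is short of the 2-fold limit. Of 12 microfold genes 6 were higher, Tnfaip2 at 119 and 275 against 17.3 and 29.9, Tnfrsf11b at 114 and 113 against 31.4 and 37.9, with Ccl6, Clu, Pglyrp1 and Cxcl16. Tnfaip2 and Ccl6 passed the limit of 25 CPM only through the members. Of the tuft list 14 of 14 genes were lower, 7 of them by the rule, and 12 passed the limit only through the tuft-like mTEC. Among genes the rule did not read, Rgs13 was at 0 and 1.19 CPM in members and 387 and 524 in tuft-like mTEC. Of 11 intertypical genes 7 were higher, such as Krt5 at 1280 and 1268 against 304 and 234. Of these 7, Pdpn passed the limit only through the members.

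Surface tags were not read by the rule, but members differed from other Aire-low TEC in depth and ADT total, and the part of either in the tag levels was not tested. Values are means over cells of log2(x + 1), where x is the tag count divided by the cell's ADT total and multiplied by the mean total, and a tag was called at a difference of 0.5 in the same direction in both wells. Against other Aire-low TEC, 1 of 27 tags was higher on members (3.7%) and 8 were lower (29.6%). CD80 stood at 3.47 and 3.21 on members and at 2.72 and 2.59 on other Aire-low TEC. Podoplanin stood at 3.49 and 3.32 against 4.63 and 4.20, CD49a at 3.02 and 2.91 against 4.03 and 3.82, and Sca1 at 7.56 and 7.64 against 8.26 and 8.33. The other lower tags were CD9, CD63, CD73, CD200 and CD31.

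The lower calls differed with the scaling. The median ADT total was 3776 counts on members and 1834 on other Aire-low TEC, and a larger total lowers the scaled value of a tag whose count does not grow with it. With unscaled log2(count + 1), 0 tags were lower and 6 higher, and with the centred log ratio 1 was lower and 4 higher. CD80 was higher by 0.75 and 0.63 scaled, by 1.19 and 1.11 unscaled and by 1.01 and 0.82 under the centred log ratio. Sca1 differed by -0.69 and -0.69 scaled and by 0.06 and 0.33 unscaled, so its direction turned. Of the 8 lower tags, 7 stayed below 0 in both wells under the centred log ratio. CD49a, CD73, Podoplanin and CD31 did so unscaled, CD49a with -0.46 and -0.15 and Podoplanin with -0.51 and -0.16. UEA1 and MHCII, uncalled when scaled, differed by 1.04 and 1.33 and by 1.00 and 1.13 unscaled.

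CD80 was then read on rich and sparse members separately. Sparse members differed from other Aire-low TEC by 0.53 and 0.46, short of the limit in well 2. CD80 stood at 4.51 and 3.88 on rich members and 3.25 and 3.05 on sparse members, and Cd80 RNA at 111 and 52.0 against 12.8 and 19.7 CPM, from 20 and 17 UMIs. Of the 20 Cd80 UMIs, 7 were in 1 rich member of well 1. Of 27 tags 1 was higher (3.7%) and 9 lower (33.3%) on rich than on sparse members. The balance turned with the scaling, as 6 were higher and 1 lower unscaled, and 5 higher and 4 lower under the centred log ratio. CD80 was among the higher and Podoplanin among the lower tags on all of these scales. Sca1 stood at 5.46 and 6.45 against 7.99 and 7.93, and Podoplanin at 1.76 and 1.79 against 3.84 and 3.70. Podoplanin differed by -0.77 and -0.88 unscaled and by -1.20 and -1.15 under the centred log ratio, and Sca1 by -0.77 and -0.10 unscaled. The median ADT total was 7288 on rich and 3143.5 on sparse members. MHCII stood at 11.3 and 10.3 against 10.3 and 10.3, and UEA1 at 9.35 and 10.5 against 9.90 and 9.76, with no common direction for UEA1 on this scale. Unscaled, MHCII was higher on rich members by 2.77 and 1.42 and UEA1 by 1.22 and 2.16, and under the centred log ratio by 2.34 and 1.16 and by 0.79 and 1.90. Sparse members had 0 tags higher (0%) and 5 lower (18.5%) than other Aire-low TEC, CD49a and Podoplanin among them. Unscaled, CD80, MHCII and UEA1 were higher on sparse members and 0 tags lower.

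Against Aire-expressing mTEC, 7 of 27 tags were higher on members (25.9%) and 1 was lower (3.7%). Sca1 was higher by 1.56 and 1.42 scaled, and by 0.49 and 0.65 unscaled, where well 1 fell short of the limit. Podoplanin stood at 3.49 and 3.32 against 2.58 and 2.51, and CD49a, CD9, CD200, CD270 (the herpesvirus entry mediator) and Epcam were higher as well on this scale. MHCII differed by -0.50 and -0.55, the 1 lower tag. Unscaled, 0 tags were higher and 6 lower, CD9, CD270 and Epcam lay below 0 in both wells, and the median ADT total was 7761 on Aire-expressing mTEC. Rich members and the 92 Aire-expressing cells differed in 2 tags higher on rich members (7.41%), CD49a and Sca1, and 1 lower (3.7%). The lower tag was CD40, the receptor that receives T cell help, with differences of -0.79 and -1.25. Unscaled, 0 tags were higher on rich members and 4 lower, namely CD40, CD54, MadCAM1 and MHCII. Cd40 RNA stood at 55.5 and 65.1 against 219 and 218 CPM.

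Tuft-like mTEC differed from members in 12 tags, 6 higher on members (22.2%) and 6 lower (22.2%). CD117, the stem cell factor receptor Kit, stood at 0.71 and 0.61 on members and at 3.69 and 3.61 on tuft-like mTEC. CD80 was lower on members, at 3.47 and 3.21 against 4.50 and 4.23, and CD54, the adhesion molecule ICAM-1, was higher at 7.30 and 7.34 against 6.14 and 6.06.

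**Figure D4:**
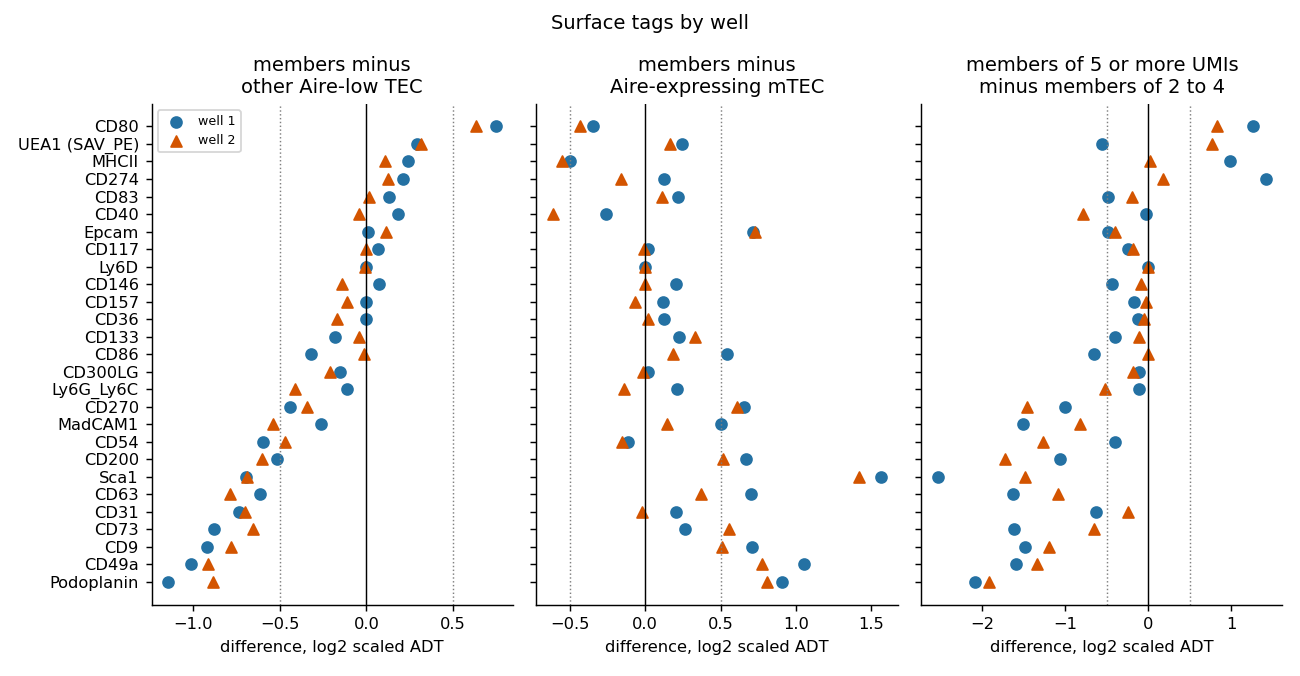
Differences in mean scaled tag level, log2, in well 1 (circles) and well 2 (triangles), for members against other Aire-low TEC, members against Aire-expressing mTEC and rich against sparse members, with dotted lines at the difference of 0.5 used for calls. CD80 lies to the right in the first and the third panel, and Podoplanin lies to the left in the first and the third panel and to the right in the second.

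Clustering the 16-week TEC without the rule genes scattered the sparse members and gathered the rich ones. Of 16 clusters, 1 held 43 of 123 members, or 35.0% (26.6 to 44.1), while it held 13.8% of TEC and 7.16% of other Aire-low TEC. It contained 20 of 23 rich and 23 of 100 sparse members, together with 368 Aire-expressing cells, 33 of them with at least 2 rule genes and 5 UMIs. Its leading genes included Lypd8, Saa3, Cyp2a5, Reg1, Reg3g, Nos2, Cd52 and Pglyrp1, and with fewer than 3 microfold markers among them it was left unnamed. The next clusters held 21, 16 and 12 members, with 0, 1 and 0 rich ones. The gathering depended on the settings. The cluster with the most rich members held 12 of 23 of them with 20 neighbours, 10 with 4000 variable genes, 11 without predicted doublets and 17 with the rule genes kept. With 20 neighbours, the cluster with the most members held 21.1% of them and 22.0% of all TEC.

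At 1 week the rule found 8 of 1543 TEC in well 1 and 3 of 1131 in well 2. Members made up 0.518% (0.224 to 1.02) and 0.265% (0.0547 to 0.773) of TEC at 1 week, and 3.86% (2.85 to 5.10) and 2.54% (2.01 to 3.17) at 16 weeks. The mean difference was 2.81 points. It was 1.08 points after thinning, where the whole rule was applied to the thinned counts and chose a different set of cells. The SD of the 2.81 points, 0.755 over wells, covers repeated loadings of 1 pool per age and does not test a change with age. Of Aire-low TEC, members were 2.77% and 1.16% at 1 week against 6.39% and 4.56% at 16 weeks. The background moved the same way, as 2.01% and 1.71% of fibroblast-type cells held 2 rule genes at 1 week against 5.91% and 3.99% at 16 weeks. Its part in the difference was not tested. Rich members were 3 and 1 cells at 1 week, 0.194% (0.0401 to 0.567) and 0.0884% (0.00224 to 0.492) of TEC, against 0.657% (0.284 to 1.29) and 0.502% (0.281 to 0.826) at 16 weeks, with overlapping intervals. Aire-expressing mTEC made up 3.95% and 4.69% of TEC at 1 week and 30.2% and 35.5% at 16 weeks.

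**Figure D5:**
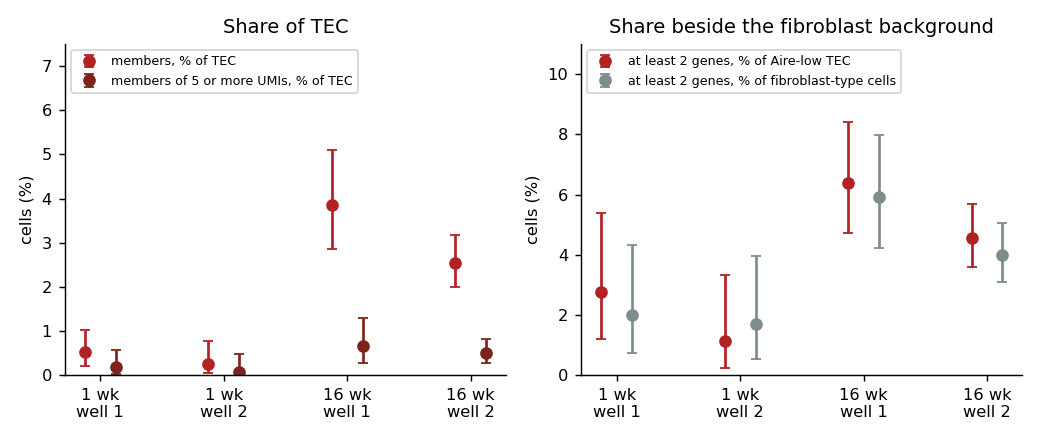
Left, members and rich members as a share of TEC (%) in each well at 1 and 16 weeks. Right, the share of Aire-low TEC and of fibroblast-type cells with at least 2 rule genes, with points for wells and whiskers for exact 95% intervals, where the fibroblast-type share is 5.91% and 3.99% at 16 weeks beside 6.39% and 4.56%.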

How the data were processed

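Per the labels and the study's methods, the authors aligned reads to mm10 with STARsolo 2.7.9a, kept cells of at least 2000 UMIs and deposited whole-number counts per gene and cell and per tag and cell, with no normalization. The labels and the methods name different versions of the 3′ reagent kit. Well and age were read from the ending of each cell name. Of 55487 gene identifiers, 55141 had a symbol in GENCODE M21. UMIs were summed per well and class and scaled to CPM, and a class at 0 counts was set to 3 counts before a ratio. Wells of 1 pool are not separate animals, so no p-value was computed. Named genes were those of the gene lists, plus the 10 per direction with the largest smaller ratio of both wells and at least 20 UMIs in the higher class in each well. Genes of the rich and sparse members were described after their values were seen. Doublets were scored with scrublet in scanpy, whose automatic limit marked 14 cells and had not worked, so the top scores at 0.8% per 1000 cells of a well were taken, 253 cells, and they were removed only in an alternative. TEC were clustered on 2000 variable genes, 30 components and 10 neighbours with Louvain (igraph). TMM factors came from edgeR. The gene call was run on simulated counts drawn from 1 profile without differences between cells. That run does not cover genes whose RNA single cells carry. Members and gene lists were chosen with earlier results of these data known.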

Additional observations from a re-analysis of the deposited data

How the results depend on the processing

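No paired analysis was possible because both wells of an age came from 1 pool and no test was run. Of 148 alternative values for 15 results, 75 stayed near the value reported and 73 moved, nearly all of them counts or shares that have no sign to change. The share of members among TEC at 16 weeks (3.20% over wells) was 1.33% after thinning to 2000 UMIs, 0.611% with at least 3 of the rule genes, 1.82% with Aire at 0 and 0.579% for rich members, and its wells gave 2.54 to 3.86. The difference between ages (2.81 points) was 1.08, 0.535, 1.57 and 0.438 under the same settings, with 2.28 to 3.34 by well. The thinned values apply the whole rule to the thinned counts, so cells over the Aire limit at full depth could enter. Genes called higher and lower against other Aire-low TEC (124 and 38) were 23 and 4 at a mean of 100 CPM, 849 and 256 with no level limit, 274 and 132 at a fold of 1.5, 433 and 333 with at least 3 rule genes and 411 and 276 for rich members. The higher count was 79 with cells weighted equally, and the lower 63 at 4000 to 20000 UMIs and 8 without cells with endothelial UMIs. In 1 well alone, 234 to 304 were higher and 78 to 153 lower. Against Aire-expressing mTEC (26 and 125) these were 4 and 28, 445 and 601, 210 and 329, 255 and 277, and 203 and 215 in the same order, with 47 higher at 4000 to 20000 UMIs, and 153 to 314 higher and 183 to 392 lower in 1 well. Against tuft-like mTEC (280 and 455) they were 78 and 126 at 100 CPM, 836 and 934 with no limit and 614 and 763 at 1.5, with 468 higher at 4000 to 20000 UMIs, and 573 to 618 higher and 695 to 773 lower in 1 well. TMM scaling moved the higher share of calls from 76.5% to 65.8% against other Aire-low TEC. Tags called against other Aire-low TEC (1 higher, 8 lower) were 4 and 1 under the centred log ratio, 6 and 0 unscaled and 2 and 13 with at least 3 rule genes, with 2 higher at a difference of 0.25. Against Aire-expressing mTEC (7 and 1) they were 1 and 4, 0 and 6, and 3 and 3 in that order, 0 and 3 for rich members, 3 lower at 0.25 and 1 to 2 lower in 1 well. Against tuft-like mTEC, 0 tags were higher instead of 6 with at least 3 rule genes and for rich members. The share of members in the fullest cluster (35.0%) was 21.1% with 20 neighbours, 22.0% with 4000 variable genes, 17.5% without predicted doublets and 19.7 to 29.8% in 1 well. Where a stricter or looser threshold moved a count, the threshold itself sets it, and the cause of the other shifts was not tested. Rich members, cells without endothelial UMIs and the other tag scalings for rich and sparse members were alternatives chosen after seeing the data. With 8 and 15 rich members, single cells weigh heavily, and the depth of 2000 UMIs limits which cells can pass the rule.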
